A study of Mus musculus with 16 samples.

Results

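Mouse genes that carry a provisional symbol were examined in peak lists of acetylated liver RNA. These are symbols of Gm followed by digits (predicted genes), symbols that end in Rik (genes named from RIKEN cDNA clones), and symbols that hold -ps or -rs and digits (pseudogenes and related sequences), with ribosomal protein symbols left out. Peaks were chosen by symbol alone, and the rule uses no measured value, though it was set with earlier results of these data known. They numbered 1951 of 68356 peaks (2.85%), on 424 of the 8602 genes with a peak (4.93%). By class, 203 Gm genes held 843 peaks, 214 Rik genes held 1089, 5 -ps genes held 9 and 2 -rs genes held 10. Peaks that shared 1 bp or more on a chromosome were merged, which gave 718 regions.

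The lists come from livers of male db/db mice (4 lists, named db1, db2, db4 and db5) and of male lean mice of the C57BL/6 strain (4 lists, named C5 to C8). The db/db genotype is a defect of the leptin receptor gene that makes mice overeat, grow obese and turn diabetic, and the lean mice serve as controls. The labels give no age and no treatment, and whole liver was used, so more cells of a type and more modified RNA per cell cannot be told apart. Each list was taken as 1 mouse. Its name gives the group but does not match 1 sample title in every case. The lists hold peaks of immunoprecipitated RNA and no input values or read counts, so depth is unknown and a peak cannot be set against the level of its transcript. All coordinates are of the mm10 build.

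N4-acetylcytidine (ac4C) is a cytidine with an acetyl group on its base, and the enzyme known to place it on RNA is NAT10. It is well established on ribosomal and transfer RNA, and an antibody against it is used to pull down mRNA fragments that carry it. A processed pseudogene is a copy of a mature mRNA put back into the genome, so its sequence can be close to that of the gene it came from. A short read may then match both places. The sources used here do not say how reads that match several places were treated, so every peak on a pseudogene or a repeated predicted gene below is uncertain as to its place of origin.

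A handful of windows around RefSeq transcript starts shows what some peaks of the class cover. Only 126 of the 718 regions overlapped such a window, so those printed here do not stand for the class. They were picked to show 1 region found only in db/db lists, 1 found only in lean lists, and 4 found in all 8 lists. Each runs 5′ to 3′ on the strand of the gene that the window belongs to, from 250 bases before the start to 50 bases after it, as RefSeq gives it for GRCm38.p6. Capitals mark the bases that the merged region covers.
2310011J03Rik (chr10:80320499-80320798, minus strand, db/db lists only): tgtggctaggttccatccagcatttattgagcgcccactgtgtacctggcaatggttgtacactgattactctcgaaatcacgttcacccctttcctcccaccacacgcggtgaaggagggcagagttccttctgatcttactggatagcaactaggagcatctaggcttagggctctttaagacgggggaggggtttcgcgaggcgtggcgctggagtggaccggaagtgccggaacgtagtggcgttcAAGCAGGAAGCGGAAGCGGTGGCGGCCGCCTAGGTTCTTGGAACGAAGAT
1810013L24Rik (chr16:8829850-8830149, plus strand, lean lists only): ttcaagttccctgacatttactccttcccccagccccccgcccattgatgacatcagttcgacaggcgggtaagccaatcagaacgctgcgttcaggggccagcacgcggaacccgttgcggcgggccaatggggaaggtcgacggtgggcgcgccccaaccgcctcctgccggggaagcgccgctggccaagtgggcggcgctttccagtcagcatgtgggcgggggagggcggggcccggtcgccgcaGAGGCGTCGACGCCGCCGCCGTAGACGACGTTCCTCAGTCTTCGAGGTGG
Gm20594 (chr6:79817781-79818080, plus strand, all lists): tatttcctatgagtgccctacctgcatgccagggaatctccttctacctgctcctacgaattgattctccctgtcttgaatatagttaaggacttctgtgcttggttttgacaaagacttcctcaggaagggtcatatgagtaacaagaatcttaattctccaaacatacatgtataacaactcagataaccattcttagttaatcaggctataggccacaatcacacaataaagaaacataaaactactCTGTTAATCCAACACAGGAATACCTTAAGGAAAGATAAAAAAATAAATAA
B630005N14Rik, RefSeq Bmt2 (chr6:13677917-13678216, minus strand, all lists): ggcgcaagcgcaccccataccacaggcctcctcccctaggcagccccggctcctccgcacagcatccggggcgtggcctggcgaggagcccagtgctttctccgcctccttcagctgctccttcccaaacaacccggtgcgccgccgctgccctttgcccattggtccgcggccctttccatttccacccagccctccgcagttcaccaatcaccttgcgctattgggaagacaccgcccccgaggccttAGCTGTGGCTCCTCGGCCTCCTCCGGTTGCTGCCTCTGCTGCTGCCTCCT
C130074G19Rik (chr1:184882987-184883286, minus strand, all lists): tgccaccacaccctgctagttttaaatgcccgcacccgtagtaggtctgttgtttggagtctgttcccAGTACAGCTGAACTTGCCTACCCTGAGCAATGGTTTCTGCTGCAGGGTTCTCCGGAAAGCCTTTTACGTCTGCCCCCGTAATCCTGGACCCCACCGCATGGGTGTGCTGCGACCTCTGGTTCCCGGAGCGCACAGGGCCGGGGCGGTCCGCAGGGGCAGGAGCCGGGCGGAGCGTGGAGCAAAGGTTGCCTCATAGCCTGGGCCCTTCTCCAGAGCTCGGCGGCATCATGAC
Arih2, under the peak assigned to Gm10621 (chr9:108649359-108649658, minus strand, all lists): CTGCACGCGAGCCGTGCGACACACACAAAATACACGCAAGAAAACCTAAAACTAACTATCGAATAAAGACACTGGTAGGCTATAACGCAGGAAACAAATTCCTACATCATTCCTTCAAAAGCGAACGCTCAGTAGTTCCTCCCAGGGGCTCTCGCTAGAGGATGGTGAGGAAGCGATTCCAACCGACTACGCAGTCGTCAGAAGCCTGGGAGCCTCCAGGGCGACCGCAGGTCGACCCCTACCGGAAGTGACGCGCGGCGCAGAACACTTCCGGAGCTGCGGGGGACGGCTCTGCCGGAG

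In 4 of these windows the region stopped exactly at the transcript start, so that it covered the 50 bases after it and none before. The region of C130074G19Rik covered 232 bases and ran past the RefSeq start. The region of Gm10621, a symbol with no entry in the RefSeq table, covered all 300 bases of the window of Arih2, which encodes a ubiquitin ligase. Cytidine made up 42% of the covered bases at B630005N14Rik, whose RefSeq gene Bmt2 encodes a methyltransferase-like protein that binds S-adenosylmethionine. It made up 32% at 1810013L24Rik, 31.5% at C130074G19Rik, 29.3% at Gm10621, 20% at 2310011J03Rik and 14% at Gm20594. Regions with a peak in every list therefore spanned both the highest and the lowest of these shares.

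The highest fold values were on peaks assigned to predicted genes. No annotation of repeated sequence was used, so whether these peaks lie on repeats was not tested. Where their reads came from is uncertain, so these folds do not measure acetylation of the genes named. The fold is the authors' own enrichment value for each peak, and folds of separate lists rest on libraries of unknown depth, so they are given as a description with no test. Of 202 peaks with a fold above 50, 93 were on predicted genes and pseudogenes (46.0%), in 14 of the 41 genes that had such a peak. Of 97 peaks with a fold above 200, 44 were on them. The median fold of their peaks lay between 4.34 and 4.52 in db/db lists and between 4.39 and 4.64 in lean lists, so these very high values are the upper end and not the usual case.

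Gm10800 had the highest fold of any gene in the 8 lists. Its single region on chromosome 2 (98666735 to 98667040) had folds of 4286, 5054, 3982 and 3927 in db/db lists, against 4312, 4463, 4123 and 6071 in lean lists. The groups overlapped, and the highest fold on a gene outside the class was 3364. Gm10801 lies next to it on chromosome 2 (98662237 to 98662522), with folds of 930, 1011, 900 and 780 in db/db lists, against 1137, 1216, 829 and 1270 in lean lists. Neither symbol has an entry in the RefSeq table used here, so no gene type or role can be given.

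Gm4799, which RefSeq lists as a pseudogene on chromosome 10 (region 82954588 to 82955000), had folds of 1323, 1018, 1111 and 1180 in db/db lists, against 648, 621, 720 and 714 in lean lists. All 4 db/db values lay above all 4 lean values. Gm20594 on chromosome 6 ran the other way, with 94.0, 75.5, 82.6 and 89.7 in db/db lists, against 98.2, 109.1, 118.9 and 131 in lean lists. Its region spans the whole annotated gene, from 79818031 to 79818364. Gm4076 on chromosome 13, named after its values were seen, had 11.9, 27.9, 26.4 and 31.8 in db/db lists, against 60.8, 55.5, 52.6 and 57.1 in lean lists. It was called in all 8 lists, so presence of a peak did not differ for any of these 3 genes.

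The Rik gene 0610011F06Rik, which RefSeq names Mettl26 and which encodes a methyltransferase-like protein, had folds of 208, 180, 200.1 and 200.2 in db/db lists, against 160, 185, 198 and 197 in lean lists. Gm21738 on chromosome 14, an unmatched symbol, had 331, 264, 393 and 216 in db/db lists, against 324, 292, 180.1 and 320 in lean lists. In both cases the groups overlapped. Gm10076, a pseudogene of the ribosomal protein gene Rpl41, had 47.6, 38.5, 36.9 and 25.9 in db/db lists, against 32.7, 30.2, 32.1 and 23.4 in lean lists, again with overlap.

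**Figure D1:**
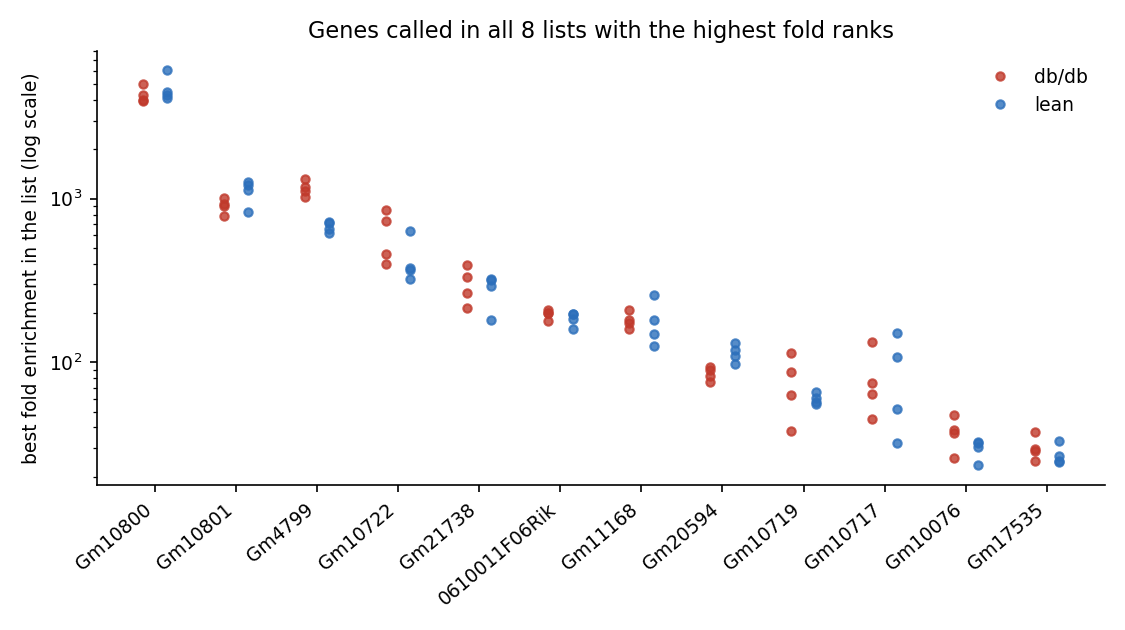
Best fold of each gene in each list on a log axis, for the 12 genes with a peak in all 8 lists and the highest mean rank of fold within a list, with 4 db/db lists left of 4 lean lists at each gene. Gm10800 lies between 3927 and 6071 in every list, and of these 12 genes Gm4799 is wholly higher and Gm20594 wholly lower in db/db lists.

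A further 39 of the 93 peaks above a fold of 50 came from 1 stretch of chromosome 9. Within 36468 bp, from 3000962 to 3037429, lay 21 regions of 8 predicted genes: Gm10715, Gm10717, Gm10719, Gm10720, Gm10721, Gm10722, Gm11168 and Gm17535. They held 109 peaks, 49.8% of the peaks on predicted genes and pseudogenes of that chromosome, with a median fold of 34.3. Each list had a similar number, 16, 14, 13 and 12 peaks in db/db lists, against 14, 12, 14 and 14 in lean lists. None of the 8 symbols matched the RefSeq table, and overlap of the stretch with repeated sequence was not tested.

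Of the 21 regions, 5 were called in all 8 lists and 2 in 1 list. The first, on Gm10722 (3000962 to 3001444), had folds of 732, 459.5, 857 and 398.5 in db/db lists, against 379, 324, 367 and 630.0 in lean lists. A second region of Gm10722, 125 bp long (3002206 to 3002330), had a peak in all 4 db/db lists, with folds of 36.1, 49.7, 64.6 and 62.2, and in no lean list. A region of Gm11168, also in all lists (3006181 to 3006536), had folds of 55.5, 175, 159 and 210 in db/db lists, against 181, 125, 150 and 256.1 in lean lists, and here too the groups overlapped. Region lengths repeated: 5 of the 21 regions, on Gm10722, Gm10717 and Gm17535, were each exactly 483 bp, the greatest length in the stretch, and the shortest was 49 bp.

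**Figure D2:**
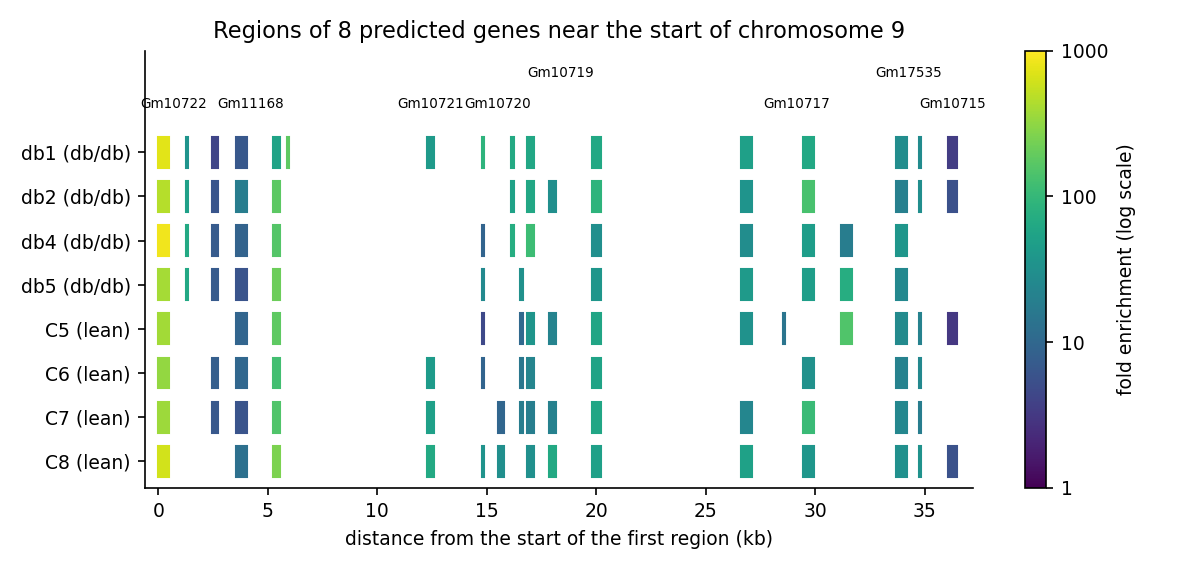
Map of the 21 regions of 8 predicted genes on chromosome 9, with distance in kb from the start of the first region across and 1 row per list (4 db/db above 4 lean), coloured by fold on a log scale where the list has a peak. The first region stands between 324 and 857 in every list, and the short region to its right has a block in the 4 db/db rows and in no lean row.

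The class is mixed in what RefSeq says of it. Of 424 symbols, 363 matched a RefSeq gene, 114 of them under another symbol. By RefSeq gene type, 234 were protein coding with 1207 peaks, 87 were pseudogenes with 362, 39 were long noncoding RNAs (lncRNAs) with 73, 3 were of other types with 3, and 61 symbols with 306 peaks had no match. Most peaks of the class thus lay on genes that RefSeq lists as coding. Of the 1645 peaks on matched genes, 1590 (96.7%) overlapped the bounds of that gene.

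The gene types differed in how high their peaks ranked. Within its own list, the median peak of an unmatched symbol stood at the 93.1 percentile of fold, that of a pseudogene at 76.2, that of a coding gene at 47.8 and that of an lncRNA at 42.0. Peaks were pooled over the lists for these medians. Of the 306 peaks on unmatched symbols, 109 came from the chromosome 9 stretch described above, so that value leans on 1 place. Median peak widths were 391 bp on unmatched symbols, 537 bp on pseudogenes, 224 bp on coding genes and 431 bp on lncRNAs. A peak in all 8 lists was found for 14 of 61 unmatched symbols (23.0%), 16 of 87 pseudogenes (18.4%), 28 of 234 coding genes (12.0%) and 1 of 39 lncRNAs (2.56%). These shares describe the types and were not tested against each other.

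Peaks on coding members numbered 160, 164, 168 and 156 in db/db lists, against 156, 141, 132 and 130 in lean lists, with means of 162 ± 5.16 in db/db and 140 ± 11.8 in lean lists (SD, n = 4 each). The exact two-sided permutation test gave p = 0.0571, and p = 0.214 after Benjamini-Hochberg adjustment over the 5 gene types. Pseudogenes went the other way, with 39, 40, 49 and 40 peaks in db/db lists, against 49, 46, 57 and 42 in lean lists (exact permutation p = 0.2, adjusted 0.333). lncRNAs had 11, 8, 14 and 11 peaks in db/db lists, against 7, 9, 8 and 5 in lean lists (exact permutation p = 0.0857, adjusted 0.214). None of these differences passed the threshold of 0.05, and 4 lists against 4 allow no p below 0.0286. Counts by gene type were not scaled to list length, and db/db lists held 8212 to 9754 peaks against 7583 to 8503 in lean lists.

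**Figure D3:**
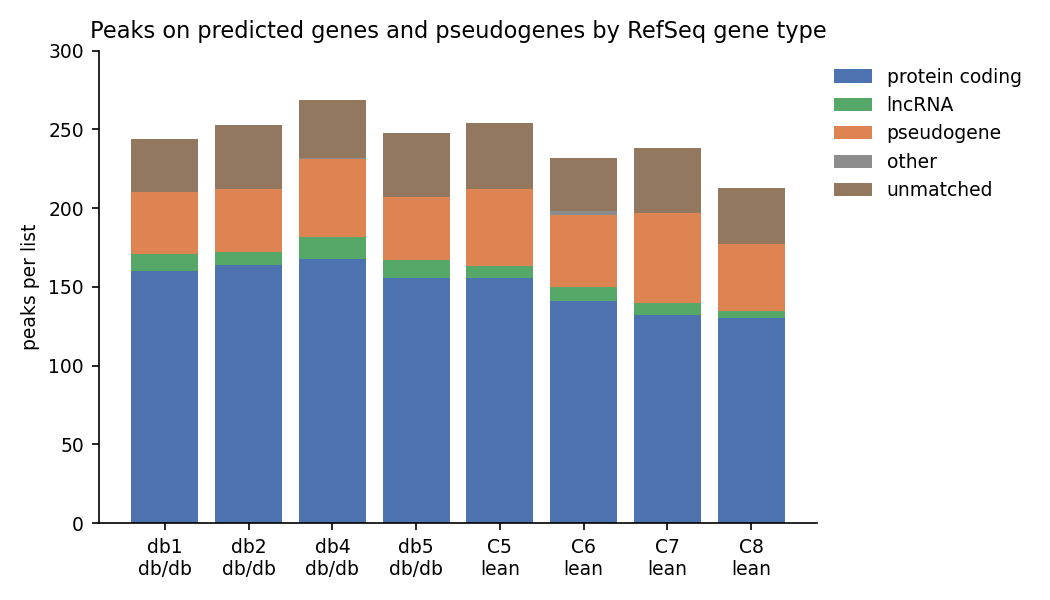
Stacked bars of the number of peaks per list by RefSeq gene type, with the 4 db/db lists left of the 4 lean lists. Coding genes make up 156 to 168 peaks of each db/db list and 130 to 156 of each lean list, and unmatched symbols average 38.25 in both groups.

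Among pseudogenes, those of ribosomal protein genes were found most steadily. Descriptions in the peak lists call 67 members pseudogenes, 12 of them with a description that names a ribosomal protein of the form L11, S2 or P0. Descriptions that mention a ribosomal protein in another form were left among the other pseudogenes, such as that of Gm10263 (40S ribosomal protein S28), which was in 2 db/db lists and 1 lean list. Of these 12, 8 had a peak in all 8 lists (Gm10036, Gm10076, Gm10269, Gm10335, Gm10709, Gm5619, Gm5786 and Gm8730), as did 6 of the other 55. This difference was not tested. Beside Gm10076, their folds were 14.4 to 30.7 at Gm10709 (Rpl29) and 7.19 to 11.6 at Gm8730 (Rplp0). The number of the 12 with a peak was 9, 8, 8 and 10 in db/db lists, against 11, 10, 10 and 8 in lean lists, a mean of 8.75 ± 0.957 in db/db and 9.75 ± 1.26 in lean lists (SD, n = 4 each, exact permutation p = 0.4).

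The parent genes were seldom called where the pseudogene was. For 10 of the 12 the ribosomal protein gene itself had no peak in any list, while Rpl29 had a peak in all 8 and Rplp0 in 4 db/db and 3 lean lists. Some of these 10 pseudogenes share a parent, so they stand for fewer separate parent genes. Ribosomal protein genes encode the structural proteins of the ribosome and are among the most highly expressed genes of any tissue. Whether the reads under these peaks came from the pseudogene or from its parent was not tested.

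The other described pseudogenes in all 8 lists included those of Sarnp (Gm6563, folds 3.61 to 11.3), which encodes an mRNA export factor, of Lsm7 (Gm10146, 3.06 to 7.97), a subunit of the ring that binds U6 RNA, of peptidylprolyl isomerase A (Gm5160, 3.25 to 10.1), a protein folding enzyme, of 1110014K08Rik (Gm7367, 4.47 to 8.82) and of betaine-homocysteine methyltransferase (Gm5096, 2.88 to 5.76), an abundant liver enzyme of methionine metabolism. Gm5424, a pseudogene of argininosuccinate synthase, the urea cycle enzyme, had a peak in 3 db/db and 2 lean lists.

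None of the 7 genes named -ps or -rs was in all 8 lists, where 13.9% of the genes of the class were. With 7 genes this does not show a difference, and it was not tested. Tpm3-rs7, a copy of the gene for the actin-binding protein tropomyosin 3, had folds of 7.06, 6.18, 4.16 and 7.9 in the lean lists and no peak in the db/db lists, while its parent Tpm3 had a peak in every list. Its region covers 1631 bp of chromosome 14 (113314608 to 113316238). Nutf2-ps1, from the gene of a factor that carries Ran into the nucleus, was in 0 db/db and 2 lean lists, and Nutf2 was in all 8.

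Adh6-ps1 was in 0 db/db and 2 lean lists, Tubb4b-ps1 in 1 of each, and Atp5l-ps1 and Olfr682-ps1 in 1 db/db and 0 lean lists. No gene named by the text before -ps (Adh6, Tubb4b, Atp5l or Olfr682) had a peak in any list. The parent was taken from the symbol alone, so a parent gene under another symbol would be missed. By the start of the symbol, 4 of the 7 belonged to a list of housekeeping and RNA-binding genes, among them Atp5l-ps1, Tpm3-rs7 and Tubb4b-ps1. None belonged to the lists of hepatic or immune genes. The hepatic list held no symbols that start with Adh, so Adh6-ps1 could not fall in it. The -rs genes had 0, 1, 0 and 1 peaks in db/db lists and 2 in every lean list, with an exact permutation p of 0.0286 that became 0.114 after adjustment over the 4 symbol classes.

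Few members were called in every list of one group and in no list of the other. With a peak in all 4 db/db and no lean list there were 3 of 424 genes (0.708%), where 0.942% of all 8602 genes met the same criterion. With a peak in all 4 lean and no db/db list there was 1 gene (0.236%), where 0.674% of all genes did. Both shares lay below those of all genes, so such genes were no more frequent here. Fisher's exact test on the lists with and without a peak gave each of these 4 genes p = 0.0286 and an adjusted p of 1 over all genes.

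The 3 genes called only in db/db lists were Gm14698, 1700024P16Rik and 2310011J03Rik. Gm14698 is a pseudogene of the serine/threonine/tyrosine interaction protein gene on chromosome X (region 68821217 to 68821776), with folds of 8.18, 3.72, 9.93 and 4.34. 1700024P16Rik, RefSeq Fyb2, encodes an adaptor protein of T cell receptor signalling and had best folds of 4.77, 3.72, 5.28 and 2.41 over 4 regions. 2310011J03Rik is coding, with no role given in the table, and its region at the transcript start printed above (chr10:80320183-80320548) had folds of 5.67, 2.95, 2.96 and 3.21. Within their lists these best folds stood on average at the 71.8 percentile for Gm14698, the 46.3 for 1700024P16Rik and the 33.9 for 2310011J03Rik.

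Of 4 lymphocyte markers, set beside Fyb2 for its known role in T cells, 2 had a peak in any list, 0 to 2 per db/db list and 0 in every lean list, while Cd3e had none. Their part in the Fyb2 call was not tested.

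By region, 5 of 718 were called in all 4 db/db and no lean list (0.696%), where 0.853% of all 25437 regions were. In the other direction it was 2 of 718 (0.279%), where 0.708% of all regions were. Besides the regions of Gm14698, 2310011J03Rik and Gm10722 described above, the db/db regions lay in 1110037F02Rik and 8430419L09Rik. 1110037F02Rik is RefSeq Virma, which encodes a subunit of the complex that writes N6-methyladenosine on mRNA. Its 97 bp region (chromosome 4, 11542107 to 11542203) had folds of 2.9, 3.76, 4.97 and 2.89, while a longer region of the same gene (11507907 to 11508179) was in all 8 lists, with folds of 6.26, 7.29, 7.32 and 8.78 in db/db and 6.96, 8.68, 6.63 and 12.7 in lean lists.

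8430419L09Rik, RefSeq Fam234b, had its 109 bp region on chromosome 6 (135198109 to 135198217) at folds of 5.45, 3.19, 2.37 and 4.34 in db/db lists, and the gene also had other peaks in 2 lean lists. One of these, in the lean list C7 (135197977 to 135198101, fold 6.27), ended a few bases before the db/db region, so that the call rests on a gap of a few bases between peaks. The lean regions were that of Tpm3-rs7 and the region at the transcript start of 1810013L24Rik (chr16:8830100-8830685), with folds of 4.91, 6.92, 5.53 and 4.84. 1810013L24Rik also had a peak elsewhere in 1 db/db list. By a looser criterion, 3 or more db/db lists with 1 lean list or none, there were 26 genes (6.13%), against 7.21% of genes outside the class, and in the opposite direction 25 (5.90%), against 4.99%. Tigar (9630033F20Rik), which encodes a phosphatase that lowers glycolytic flux, was in 4 db/db lists and 1 lean list.

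The class as a whole took a similar share of every list. Its peaks numbered 244, 253, 269 and 248 in db/db lists, against 254, 232, 238 and 213 in lean lists, a mean of 253.5 ± 10.97 in db/db and 234 ± 16.9 in lean lists (SD, n = 4 each). The difference of 19.25 peaks gave p = 0.143 in the exact permutation test. As a share of all peaks of the list the order turned, at 2.81% ± 0.138 in db/db and 2.90% ± 0.0776 in lean lists (exact permutation p = 0.314). The db/db lists were longer, with 8212 to 9754 peaks against 7583 to 8503 in lean lists. Without the lean list C5 the difference in number was 25.83 with an exact permutation p of 0.0286, the smallest that 4 against 3 lists allow. Leaving out any other single list gave an exact permutation p of 0.143 to 0.286. The difference turned to -5.25 with equal numbers of peaks per list and to -1 with a score of at least 50.

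Genes of the class with a peak numbered 180, 185, 205 and 179 in db/db lists, against 195, 177, 188 and 161 in lean lists (exact permutation p = 0.514). Rik genes carried most of the difference in peaks, with a mean of 145.5 ± 6.66 in db/db and 127 ± 13.1 in lean lists (SD, n = 4 each, exact permutation p = 0.0857, adjusted 0.171). Gm genes had 107 ± 4.65 peaks in db/db and 104 ± 6.38 in lean lists (SD, n = 4 each, exact permutation p = 0.543). With an equal number of top-scoring peaks from each list, 7583, the difference for Rik genes was -0.75.

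The class held a larger share of genes called in a single list, a description that was not tested. Of the 424, 131 (30.9%) had a peak in 1 list and 59 (13.9%) in all 8, against 22.6% and 20.1% of the 8178 genes outside the class. Regions showed little of this: 320 of 718 (44.6%) were in 1 list and 49 (6.82%) in all 8, against 45.1% and 6.19% of the other regions. Among Gm genes 35 of 203 (17.2%) and among Rik genes 24 of 214 (11.2%) were in all 8 lists. In all, 110 genes had peaks only in db/db lists, 95 only in lean lists and 219 in both. By construction the 131 genes called in 1 list fall on 1 side of this split. The same split was not counted for genes outside the class, so it does not show a trait of the class.

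**Figure D4:**
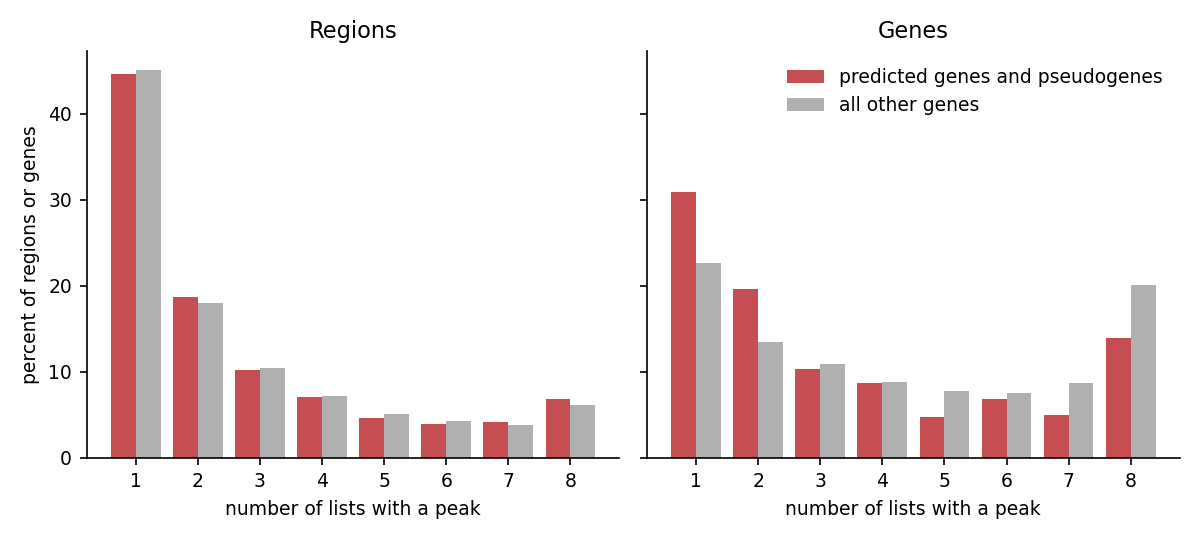
Percent of regions and of genes by the number of lists with a peak, for predicted genes and pseudogenes and for all other genes. The regions of the 2 sets follow nearly the same curve, while genes of the class are at 30.9% in 1 list and 13.9% in all 8, against 22.6% and 20.1% of other genes.

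Peaks of the class were wider and ranked higher than other peaks of the same list. The median width was 314, 306, 305 and 303 bp in db/db lists and 296.5, 378, 339.5 and 319 bp in lean lists, against 174 to 178 bp and 183 to 192 bp on other genes of the same lists. The difference averaged 139 bp and had the same sign in 8 of 8 lists (exact sign-flip test, p = 0.00781, the smallest that 8 lists allow). The median percentile of fold within the list was higher by 9.75 points on average, again in 8 of 8 lists (p = 0.00781, same exact test). This is not a property of every gene type, since peaks of coding members, 1207 of the 1951, had a median percentile of 47.8. Without the 14 genes that had a fold above 50, the width difference was 138 bp and the fold difference 5.13 points, both with an exact p of 0.00781. With only peaks inside the bounds of a matched RefSeq gene the fold difference was 5.16 points, and with only peaks of a score of at least 50 it was 21.4 points (exact p = 0.00781 for each).

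The percentile of the score, which is a scaled negative log10 of the peak caller's p, was higher by 6.71 points (8 of 8 lists, exact sign-flip p = 0.00781), by 1.84 points without those 14 genes (exact p = 0.0234), by 2.28 points inside RefSeq bounds (exact p = 0.0156) and by 19.3 points at a score of at least 50 (exact p = 0.00781). By group of lists, the difference for fold was 8.71 ± 1.25 points in db/db and 10.8 ± 1.51 in lean lists (SD, n = 4 each, exact permutation p = 0.0571), and for width 131 ± 6.06 bp in db/db and 148 ± 30.7 bp in lean lists (exact permutation p = 0.371). The authors' false discovery rate was 100% for 1822 of the 1951 peaks (93.4%) and for 99.4% of other peaks, and 1 peak of the class had a rate of 5% or less.

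**Figure D5:**
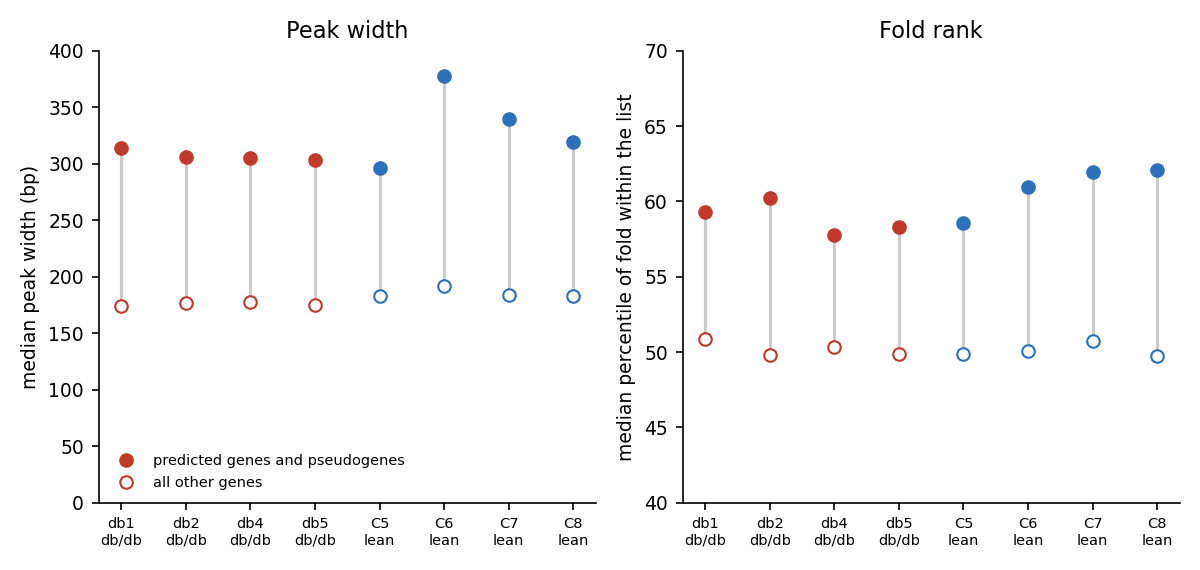
Median peak width in bp (left) and median percentile of fold within the list (right) for predicted genes and pseudogenes (filled) and all other genes (open) in each list, with db/db lists left of lean lists. The filled point lies above the open one in all 8 lists in both panels; the right axis starts at 40.

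Long coding genes under a provisional symbol held the most regions. Gm15800, RefSeq Hectd4, which encodes a HECT-type ubiquitin ligase, had 44 peaks in 19 regions of chromosome 5, with best folds of 4.51, 7.18, 5.28 and 6.75 in db/db lists and 3.87, 3.95, 3.86 and 10.45 in lean lists. 4930506M07Rik, RefSeq Shtn1, which encodes shootin, a protein known from axon growth, had 48 peaks in 13 regions, with best folds of 3.51 to 8.02. 4932438A13Rik had 35 peaks in 13 regions (best folds 4.9 to 10.4), and 4930402H24Rik had 21 in 12 (2.41 to 5.79). All 4 genes had a peak in all 8 lists, so the presence of the gene in a list did not separate the groups, while single regions within them did not recur evenly: the Gm15800 region 121220219 to 121220657 was in 4 db/db lists and 1 lean list, and the region 121355563 to 121355669 in 2 db/db and 4 lean lists.

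Among Gm genes 4 followed with 5 regions each: Gm14308, Gm18853, a pseudogene of an interferon-inducible GTPase gene, Gm3776 and Gm608, RefSeq Usf3. Gm14308 and Gm18853 were in 2 db/db and 2 lean lists, and Gm3776 and Gm608 were in all 8. The widest regions were on Gm7694 (3449 bp, chromosome 1, 2 db/db lists and 1 lean list), 1700017B05Rik (3 db/db lists and 1 lean list) and Gm340, RefSeq Lcor, which encodes a nuclear receptor corepressor (2893 bp, 1 lean list). Among lncRNAs, 1810032O08Rik, RefSeq Snhg16, a host of small nucleolar RNAs, was the 1 found in all 8 lists, with folds of 13.3, 13.3, 14.9 and 13.5 in db/db and 18.9, 20.0, 12.8 and 18.8 in lean lists.

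Where the regions sit was compared with the RefSeq annotation. Of 718 regions, 185 (25.8%) lay within the bounds of another RefSeq gene and 152 (21.2%) within those of another coding gene, and the lists do not give a strand that would tell the genes apart. In 9 regions the class shared bases with a peak assigned to a gene outside the class. Of the peaks on matched genes, 113 started exactly at a gene's start coordinate, 113 ended at its end coordinate and 31 covered the whole gene. By chromosome, 219 peaks lay on chromosome 9 (5.14% of the peaks there), of which the stretch described above made up 109, and 9 of the 34 peaks on chromosome Y belonged to the class.

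Of the 718 regions, 126 (17.5%) overlapped a window at a RefSeq transcript start, 93 of them a window of their own gene. The windows they overlapped were searched for runs of 5 triplets of the form CNN, 15 bases long, since ac4C sites on RNA have been reported in repeated CNN contexts. Such a run was present on the gene's strand in 93 of 149 overlapped windows (62.4%), where 41.2% of all 32817 windows held one. Windows were searched whole, with 250 of their 300 bases before the transcript start. A run can therefore lie outside the region and outside the transcript. Some of the windows belonged to a gene other than the one the peak was assigned to. On either strand 63.2% of all windows held one. Median GC content was 63% in overlapped windows and 52.7% in all windows, and median C content 31.3% and 25.7%, so the run moved together with base composition and its own part was not tested.

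Marker genes of the liver were checked as a test of the tissue label, by whether they had a peak. Of 8 hepatocyte markers, 3 had a peak in any list, 0 to 3 per db/db list and 0 to 1 per lean list, and Alb, Apoa1, Ttr, Serpina1a and Cyp2e1 had none. Kupffer cell markers had one for 5 of 6, at 1 to 2 per db/db list and 1 to 3 per lean list, and endothelial markers for 4 of 4, at 1 to 3 per db/db list and 2 to 3 per lean list. Stellate markers had one for 4 of 5, at 2 to 4 per db/db list and 1 to 2 per lean list, and cholangiocyte markers for 2 of 3, at 0 to 2 per db/db list and 0 in every lean list. None of 4 muscle and fat markers had one. A marker without a peak says nothing about its expression, because the lists hold acetylation peaks and not RNA levels, so the label could be checked only in this limited way.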

How the data were processed

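Liver RNA of 4 db/db and 4 lean mice was depleted of ribosomal RNA, fragmented and immunoprecipitated with an ac4C antibody, with inputs sequenced alongside, per the labels' protocols; the libraries were stranded. HISAT2 2.0.4, cutadapt 1.9.3 and mm10 are named in the submitters' processing notes. Peaks were called with MACS, per the peak names in the deposited lists; its version, its control and its treatment of multiply matching reads are not given in the sources used here. The authors deposited 8 peak lists, with a score (a scaled negative log10 of p), a fold enrichment ratio, a false discovery rate in percent and a width in bp for each peak. Peaks are given list by list, and whether samples were pooled for calling is not stated. Depth is unknown, so no counting interval is given. Starts in the lists count from 0 (2127 peak starts lie 1 below a RefSeq gene start) and are printed counted from 1.

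The class was found by symbol, and regions were merged at 1 bp or more of overlap. Symbols were matched to RefSeq (GRCm38.p6) by gene ID, symbol, accession or synonym. Differences between groups used exact two-sided permutation tests over 70 arrangements of the lists, differences within lists an exact sign-flip test, and single genes Fisher's exact test with Benjamini-Hochberg adjustment over 8602 genes. The permutation, sign-flip and merging code was run on small inputs with known answers. A simulated table with planted genes was also made, in which the planted pattern was found by construction. The Benjamini-Hochberg adjustment was not checked against a known answer. No batch is named, and nothing states how the lists map to single mice, so p-values measure the spread between these lists. Genes were named by a rule: called in all lists of one group and none of the other; the 12 of highest fold rank in all 8 lists; most regions per symbol class; -ps and -rs genes whose parent has a peak; group-specific regions; widest regions; and family lists. Further genes, such as Gm4076, Tigar, Snhg16 and the pseudogenes described as such in the lists, lie outside it and were chosen after their values were seen. Some genes that the rule or lists name are not reported here. The members and lists were chosen with earlier results of these data known. Alternatives were a fold of at least 4, a score of at least 50, equal numbers of peaks per list, only peaks in RefSeq bounds, no loci shared with other genes, a wider symbol rule, merging at 50% of the shorter peak, and leaving out each list. Leaving out genes with a fold above 50 was added after seeing the data. Python 3.11.15, pandas 2.3.3, numpy 2.4.6, scipy 1.17.1 and matplotlib 3.10.9 were used.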

Additional observations from a re-analysis of the deposited data

Results flagged for a closer look

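A few values (4) stood far from the other lists of their group of 4, of 50 groups examined, and chance marks about 1 in 20 groups. The share of peaks on predicted genes and pseudogenes was 3.02% in the db/db list db5, against 2.73% to 2.76% in the other db/db lists. The lean list C7 had 3 peaks on -ps genes, against 1 in each other lean list. The difference in median width between the class and other genes was 140 bp in the db/db list db1, against 127 to 129 bp in the others. The fold of 2310011J03Rik was 5.67 in the db/db list db1 and 2.95 to 3.21 elsewhere in that group.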

How the results depend on the processing

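No paired analysis was possible because the lists' names carry numbers (db5, C5 to C8) that do not match the replicate numbers of the sample titles. Of 123 values recomputed under settings other than leaving out a list, 6 changed sign and 7 counts moved by over 1.5 times. The other 110 did not turn sign or cross their threshold, though their size could change: with folds limited to 4 or more, the difference was 0 for genes and 5.5 for Rik peaks, and with scores limited to 50 or more it was 0.5 for Rik peaks. With a score of at least 50, the difference (db/db minus lean) was -1 for peaks (exact permutation p = 0.886) and -2.75 for genes of the class, genes only in db/db numbered 0 and only in lean 3, regions only in db/db 1, regions in all 8 lists 28 and regions in 1 list 102. With equal numbers of peaks per list, the differences were -5.25 for peaks (exact permutation p = 0.571), -4.25 for genes, -2.25 for Gm peaks and -0.75 for Rik peaks, and regions only in db/db numbered 3. With a fold of at least 4, regions in 1 list numbered 179. The cause of these shifts was not tested. Leaving out 1 list at a time gave 12.17 to 25.83 for the difference in peaks, highest without C5. It gave 3 to 7 genes only in db/db (7 without db5, and 5 without db1, db2, C6 or C8), 1 to 6 only in lean (6 without C8, 3 without C5 or C7, 2 without db4), 6 to 13 regions only in db/db (13 without db1, 10 without db5, 8 without C5 or C6) and 3 to 7 only in lean (7 without C8, 5 without C5, 4 without C6 or C7). By construction a criterion over 7 lists is easier to meet. The differences within lists kept sign under every setting run, at 5.13 to 21.4 points for fold rank, 1.84 to 19.3 for score rank and 112 to 204 bp for width. Unknown depth limits any statement that a peak is absent from a list.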
